A study of Mus musculus with 6 samples.

Results

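Resting Th2-4th cells were compared with resting Th2-1st cells on 2 of the 6 Affymetrix mouse genome arrays of the series, 1 array each. Each array gave a linear signal per probe set, and the difference of a gene was its log2 signal in Th2-4th cells minus that in Th2-1st cells. Each gene was represented by 1 probe set, the one with the highest mean log2 signal over the 6 arrays among those naming that gene alone. A gene was described when the higher of its 2 resting signals exceeded the median of all probe sets on that array, which held for 10847 of the 18194 genes with a probe set. Just outside this limit lay Il20, with signals of 62.5 in Th2-1st against 50.2 in Th2-4th cells, and just inside it Cd226, with 62.6 in Th2-1st against 18.6 in Th2-4th cells. On the Th2-4th side, 9530057J20Rik (27.8 and 74.2) lay just outside and Fgf23 (31.1 and 74.2) just inside.

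Both arrays held splenic CD4 T cells of C57BL/6 mice, which the study used at 6 to 8 weeks of age. The cells had been purified with a magnetic sorter and transfected with the control siRNA AM4635 by nucleofection. They were taken 24 h later without renewed anti-TCR stimulation. Th2-1st cells had been activated with plate-bound anti-TCR mAb and anti-CD28 mAb, and were kept with IL-2 at 25 U/ml and IL-4 at 100 U/ml for 5 days in all. Th2-4th cells began with the same 5 days. They then passed through rounds of 2 days without added cytokine and 5 days with anti-TCR mAb, IL-2 and anti-IL-4 mAb, and the labels give a culture of 4 weeks. The study names no anti-CD28 mAb and no added IL-4 for these later rounds. Age of the culture, repeated anti-TCR stimulation and the blocking of IL-4 therefore cannot be told apart in this comparison. The same holds for the lack of added IL-4 and of anti-CD28 mAb and for the days without cytokine. Whether the 2 arrays came from separate mice or cultures, and how many mice were pooled, is not given. The 4 remaining arrays held Th2-1st and Th2-4th cells after 4 h of anti-TCR stimulation, with control siRNA or with Gata3 siRNA, and serve below only as further Th2-4th and Th2-1st pairs.

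Helper T cells that meet IL-4 while being activated become Th2 cells, which secrete IL-4, IL-5 and IL-13 under the transcription factor GATA3. A freshly activated T cell divides rapidly for some days and builds many ribosomes to do so, then slows as the stimulus fades. T cells stimulated again and again take on effector molecules that are low in young cells, such as granule proteases, receptors shared with natural killer (NK) cells and receptors that restrain activation.

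With 1 array per culture no p-value was computed, and a gene was called when its signals differed more than 2-fold. The deposited arrays had been scaled to a common trimmed mean. Their medians differed, with 62.5 in resting Th2-1st and 74.2 in resting Th2-4th cells, a log2 ratio of 0.25. Of the 8 T cell markers measured, all lay above the array median on both resting arrays, with summed signals of 62985 in Th2-1st against 94861 in Th2-4th cells. Cd4 itself read 335 in Th2-1st against 882 in Th2-4th cells, and Cd3g, a chain of the T cell receptor complex, 11586 and 26175. Of the markers of NK cells, 4 were measured and 1 lay above the median on either resting array, Il2rb (1036 and 595), which activated T cells also use. The defining NK cell gene Ncr1 was below the median in both cultures (10.7 and 16.7), and Eomes was at or near it, with 44 and 74.1 on its brightest probe set and 69.7 and 38.4 on the other. Summed signals of the 2 CD8 markers were 468 and 234. The 14 myeloid markers summed to 575 and 962. Of these 5 passed the signal filter and 3 were over 2-fold higher, Fcgr3 (68.8 and 191), Cd68 (95.2 and 234) and Cd14 (29.4 and 106). Cd14 passed only through its Th2-4th signal, and 2 of the 3 myeloid markers above the median in both cultures were higher. The mast cell and basophil markers summed to 679.7 and 889, of which Cpa3 made up 562 and 582. Mcpt8, another marker of that list, was higher (3.01 and 183 at rest, 7.63 and 873 after stimulation). The part of other cells in these signals was not tested. The B cell and plasma cell markers summed to 6526 in Th2-1st against 935 in Th2-4th cells, of which Ighm made up 5856 and 693.

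Among the 10847 genes, 1292 (11.9%) were over 2-fold higher and 1002 (9.24%) over 2-fold lower in resting Th2-4th cells, and 8553 were neither. These percentages are the background for every list below. The median log2 difference over all 10847 genes was 0.08. The split between higher and lower depended on the scaling. As deposited, 56.3% of the called genes were higher, against 36.1% when the array medians were set equal (866 higher, 1530 lower) and 49.5% after quantile normalization (1126 higher, 1147 lower). Equal medians moved the median of all 10847 genes to -0.16. Many called genes had a low signal in the other culture: the Th2-1st signal was below its array median for 425 of the higher genes, and the Th2-4th signal for 267 of the lower ones. With every signal first raised to its array's median, 1005 genes were higher and 815 lower, and 48 were more than 8-fold higher against 14 more than 8-fold lower. Differences called floored below were computed this way.

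**Figure D1:**
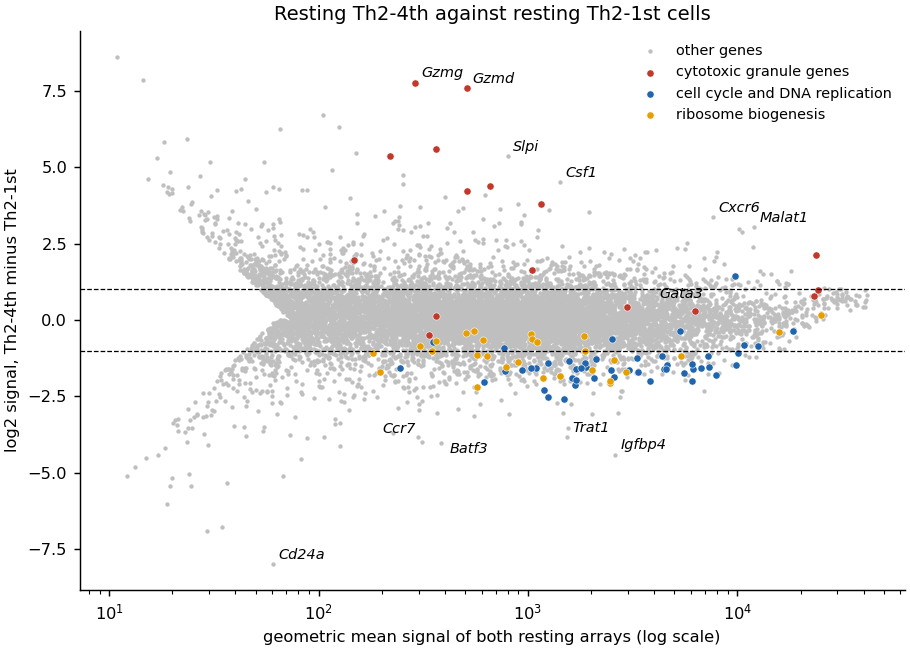
The log2 difference of Th2-4th minus Th2-1st signal (y axis) is plotted for each of the 10847 genes against the geometric mean of its 2 resting signals (x axis, log scale), with dashed lines at a 2-fold change and coloured points for 3 gene lists. The granzyme genes Gzmg and Gzmd stand near the top (7.78 and 7.59), level with a few genes of low mean signal, cell cycle genes lie in a band below zero with a median of -1.59, and the empty wedge at low signals is made by the filter.

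The largest floored differences were in the granule proteases, the enzymes that killer lymphocytes release to induce death of a target cell. Of 18 listed granule genes all were measured and 16 passed the signal filter, of which 10 were over 2-fold higher in Th2-4th cells and none was over 2-fold lower. Their median log2 difference was 2.05. Since 4 of the 16 passed only through Th2-4th cells, these values are a description. Of the 12 above the median in both cultures 6 were higher, with a median of 1.32. Gzmd read 36.7 in Th2-1st against 7073 in Th2-4th cells, a log2 difference of 7.59, or 6.82 floored. Gzmg read 19.6 and 4289, or 6.10 floored. Both were close to silent in resting Th2-1st cells and strong in resting Th2-4th cells. Gzme read 52.2 and 2508, Gzmf 34.1 and 1413 and Gzmc 143 and 3019, with floored differences of 5.33, 4.50 and 4.40. In bulk RNA, a larger share of cells making a transcript and more transcript per cell cannot be told apart, here or below.

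These 5 granzyme genes are neighbours. In the RefSeq gene order the run reads Mcpt4, Mcpt8, Ctsg, Gzme, Gzmd, Gzmg, Gzmn, Gzmf, Gzmc, Gzmb, Atp12a. The difference did not extend evenly over the run. Gzmn, which lies between Gzmg and Gzmf, was below the array median in both cultures (14.2 and 5.18), and so was Mcpt4 (20.0 and 7.28) at one end and Atp12a (18 and 31.1) at the other. Mcpt8 passed the filter through its Th2-4th signal (3.01 and 183), whereas Ctsg did not (4.37 and 65.5). Gzmb, the best known killer granzyme, was already strong in Th2-1st cells and read 17663 and 30603, a difference of 0.79. The 250 bases before the start sites show how alike the members of this run are. They are printed for 3 of the genes that differed and for Gzmn, which did not pass the signal filter. The sequences are as given by RefSeq for GRCm38.p6, 5′ to 3′ on the gene's own strand (minus for all 4). Capitals mark the longest run of letters, 20 bases, that the windows of Gzmc, Gzmd, Gzme, Gzmf and Gzmg share.
Gzmd, chr14:56132594-56132843: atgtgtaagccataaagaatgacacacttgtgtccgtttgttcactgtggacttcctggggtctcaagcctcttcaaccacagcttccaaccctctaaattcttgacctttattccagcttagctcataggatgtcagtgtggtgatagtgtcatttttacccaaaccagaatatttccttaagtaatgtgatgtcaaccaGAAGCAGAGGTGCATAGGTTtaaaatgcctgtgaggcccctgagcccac
Gzmg, chr14:56159580-56159829: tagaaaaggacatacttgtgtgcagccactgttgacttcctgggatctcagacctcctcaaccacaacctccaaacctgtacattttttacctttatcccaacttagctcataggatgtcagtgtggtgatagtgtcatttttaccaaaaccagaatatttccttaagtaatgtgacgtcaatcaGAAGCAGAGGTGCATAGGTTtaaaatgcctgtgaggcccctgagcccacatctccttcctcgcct
Gzmc, chr14:56234658-56234907: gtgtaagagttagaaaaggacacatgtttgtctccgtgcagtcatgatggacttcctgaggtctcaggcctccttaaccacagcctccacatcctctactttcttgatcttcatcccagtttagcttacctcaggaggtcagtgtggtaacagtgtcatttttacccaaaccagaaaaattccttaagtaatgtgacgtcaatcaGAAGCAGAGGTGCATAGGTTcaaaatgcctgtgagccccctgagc
Gzmn, chr14:56174600-56174849: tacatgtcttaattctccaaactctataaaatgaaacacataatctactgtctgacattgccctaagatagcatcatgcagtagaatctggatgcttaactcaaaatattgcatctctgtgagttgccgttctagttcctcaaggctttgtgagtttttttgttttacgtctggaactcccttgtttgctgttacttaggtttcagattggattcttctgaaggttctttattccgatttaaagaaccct
The shared run begins 49 bases before the start site in Gzmd, 65 in Gzmg and 45 in Gzmc, and the Gzmn window does not hold it. Aligned end to end, the 5 windows were 70.2% (Gzmc and Gzmf) to 94.8% (Gzmd and Gzme) identical. The Gzmn window was 44.8% to 49.3% identical to the other windows, Gzmb included, and the Gzmb window 44.1% to 49.3%. The probe sets standing for Gzmd and Gzme are of a type that can match several transcripts, so their signals may not be separate. Likeness of the transcripts themselves was not tested. A second probe set of Gzmd read 35 and 5974, a difference of 7.42.

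The remaining granule genes differed less. Gzma, one of the Th2-specific genes of the study, read 11345 in Th2-1st against 49543 in Th2-4th cells, a difference of 2.13. Prf1, the pore-forming perforin, read 74.4 and 292 (1.97), and Nkg7, a protein of cytotoxic granules, 311 and 4316 (3.80). Fasl, the ligand of the death receptor Fas, read 118 and 2194 (4.22). Carriers and caretakers of the granule were near their Th2-1st signals: Lamp1 read 5622 and 6947, and Serpinb9, the inhibitor of granzyme B, 349 and 381. Gzmk (23.3 and 9.06) and Gzmm (28.5 and 44.1) did not reach the array median in either culture.

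Receptors that T cells share with NK cells differed in the same direction. Of 20 listed genes 15 were measured and 9 passed the filter, of which 7 were over 2-fold higher and 1 lower. Since several passed only through Th2-4th cells, their median of 2.70 (1.84 floored) is a description. Klrc1 and Klrd1 encode NKG2A and CD94, which pair as an inhibitory receptor, and they read 48.5 and 1317 and, for Klrd1, 134 and 1608. Klrk1, the activating receptor NKG2D, read 67.1 and 893, and its signalling adaptor Hcst (DAP10) 783 and 2898. Floored differences were 4.40 for Klrc1, 3.58 for Klrd1, 3.73 for Klrk1 and 1.89 for Hcst. Klrd1, Klrk1, Klrc3, Klrc2 and Klrc1 follow one another in the RefSeq gene order, but Klrc3 (0.494 and 6) and Klrc2 (1.71 and 4.29) stayed far below the median in both cultures. Fcer1g, an adaptor with an activation motif, read 34.4 and 224, whereas Tyrobp, the adaptor DAP12, did not reach the median (15 and 28.1). The lower gene, Cd226, was at the edge of the filter. Flooring raised its Th2-4th signal to that array's median, so its floored difference of 0.25 reflects the unequal array medians and gives no direction.

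**Figure D2:**
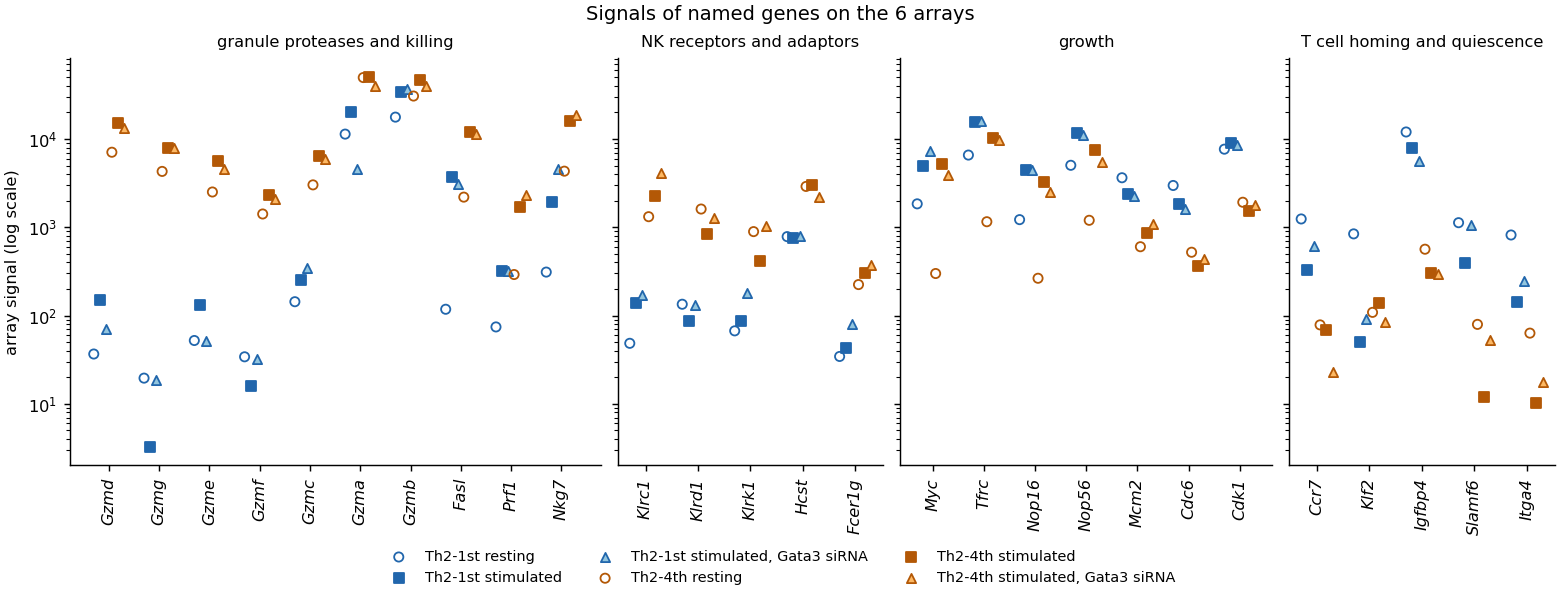
Signals of named genes (y axis, log scale) are shown on all 6 arrays, with Th2-1st cells in blue and Th2-4th cells in orange, open circles for resting cells, squares for cells after anti-TCR stimulation and triangles for stimulated cells with Gata3 siRNA; each symbol is 1 array. The orange symbols of Gzmc to Gzmg and of Klrc1, Klrd1 and Klrk1 lie above all blue symbols, whereas Myc, Tfrc and the nucleolar genes separate the cultures most in the resting cells.

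Genes of the cell cycle formed the clearest lower group. Of 50 listed genes 48 were measured, all 48 passed the filter, and 40 of them (background 9.24%) were over 2-fold lower in resting Th2-4th cells. Their median was -1.59, with a range of -1.83 to -1.44 over the processing alternatives. The replication licensing factors were among the lowest. Mcm2, a subunit of the replicative helicase, read 3635 in Th2-1st against 602 in Th2-4th cells, a difference of -2.59. Cdc6, which loads that helicase, read 2972 and 521 (-2.51), and Gins1, which activates it, 2638 and 539 (-2.29). Mitotic genes were lower as well. Aurkb, a mitotic kinase, read 3503 and 797 (-2.14), Cdk1, the kinase that starts mitosis, 7659 and 1919.8, and the proliferation marker Mki67 14737 and 6923 (-1.09). These transcripts were reduced rather than lost, since every one of the 48 genes kept a resting Th2-4th signal above the array median. Pcna, the sliding clamp of replication, read 20928 and 16240.1 and differed by -0.37, less than 2-fold. The exception in direction was Ccnd2, the cyclin D2 gene, which read 5928 and 16095 and was higher by 1.44, while Cdk4, its kinase partner, read 3279 and 1368 (-1.26).

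Promoters of the lower genes were searched for letters of the E2F type, which many replication genes carry (TTTCCCGC, TTTCGCGC, TTTGCCGC or TTTGGCGC, either strand, in the 250 bases before the start). Such letters were in 7.41% of the 823 windows of genes over 2-fold lower after flooring, in 1.85% of the 1028 windows of genes over 2-fold higher, in 3.34% of the 11329 windows of all genes above the array median, and in 2.64% of the 18110 windows of all measured genes. Among the 45 windows of the cell cycle list 6 held them (13.3%). Shares here and below are of windows, and a gene could have several windows or none. These 45 windows came from 40 of the 48 genes. The share was similar in the ribosome biogenesis list (3 of 26 windows, 11.5%) and the interferon response list (3 of 28, 10.7%). It was 3.70% of 27 windows in the list of p53 targets and 0% of 16 in the granule list. The window of Cdc6, on the plus strand, is printed with its single match in capitals.
Cdc6, chr11:98907901-98908150: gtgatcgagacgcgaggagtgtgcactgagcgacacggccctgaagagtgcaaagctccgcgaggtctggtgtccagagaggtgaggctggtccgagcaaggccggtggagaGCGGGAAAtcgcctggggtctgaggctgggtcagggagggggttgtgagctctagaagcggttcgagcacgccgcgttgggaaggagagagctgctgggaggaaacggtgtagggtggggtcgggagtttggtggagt
The match begins 138 bases before the start site. A match of letters is a description of the sequence and does not show that a factor was bound.

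Cell cycle inhibitors and targets of the tumour suppressor p53 lay in the opposite direction. Of 24 measured genes 23 passed, 15 were over 2-fold higher (background 11.9%) and none over 2-fold lower. Their median was 1.18 (range 0.93 to 1.34 over the alternatives). Cdkn1a, the inhibitor p21, read 2812 in Th2-1st against 8425 in Th2-4th cells, a difference of 1.58. Cdkn2b, the inhibitor p15, read 71.4 and 322 (2.17), Cdkn1b, the inhibitor p27, 3004 and 7550.2 (1.33), and Cdkn2a 183 and 382 (1.06). Inhibitors of both main families were thus higher, but Cdkn2c, the inhibitor p18, read 2751 and 1378 and lay at the lower threshold. Zmat3, an RNA-binding p53 target, read 1178 and 5219 (2.15), and Bbc3, which encodes the death-promoting protein PUMA, 279 and 994 (1.83). Mdm2, the p53 target that degrades p53, read 1585 and 2829.9 (0.84) and was not called.

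Genes that build ribosomes were the other lower group, and it differed from the cell cycle group in the stimulated pairs. All 28 listed genes passed, 17 were over 2-fold lower in resting Th2-4th cells, none was over 2-fold higher, and the list median was -1.12 (range -1.37 to -1.05). Nop16, a nucleolar protein, read 1219.9 in Th2-1st against 265 in Th2-4th cells, and Nop56 and Nop58, core proteins of the particles that methylate ribosomal RNA, read 5031 and 1199 and, for Nop58, 4917 and 1242. Their differences were -2.21, -2.07 and -1.99. After 4 h of anti-TCR stimulation the same 28 genes had a median Th2-4th minus Th2-1st difference of -0.27, and 0 of them were over 2-fold lower. With Gata3 siRNA the median was -0.51 and 1 was lower. Nop16 then read 4472 and 3239.6 in stimulated control siRNA cells. The cell cycle list, by contrast, had medians of -1.76 and -1.50 in the 2 stimulated pairs, with 41 and 42 genes over 2-fold lower. Whether the size of the difference itself changed with stimulation was not tested, since each pair is 2 arrays.

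Myc, the transcription factor that drives growth and ribosome production, followed the nucleolar genes. Its signal was 1841 in Th2-1st against 299 in Th2-4th cells at rest, a difference of -2.62, and 4939 and 5218 after stimulation (0.08). In the stimulated pair with Gata3 siRNA, Myc read 7371 and 3955 (-0.90). Tfrc, the transferrin receptor that brings in iron, read 6569 and 1155 at rest (-2.51) and 15508 and 10296 after stimulation (-0.59). The amino acid transporter genes Slc7a5 (1703 and 397, -2.10) and Slc7a1 (3067 and 859, -1.84) were lower at rest too, and Slc7a5 read 4713 and 4775 after stimulation. Enzymes of serine and glycine synthesis were lower in all 3 pairs: Psat1 read 6292 and 1880.5 at rest, and its differences were -1.74 at rest, -1.60 after stimulation and -1.41 with Gata3 siRNA.

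Other metabolic lists had smaller median differences than the ribosome biogenesis list. Of 20 glycolysis genes 4 were over 2-fold lower (background 9.24%) and 2 higher (background 11.9%), with a median of -0.15. Among them Tpi1, triose phosphate isomerase, read 11150.3 and 2855 (-1.97) and Hk2, the inducible hexokinase, 735 and 339.6 (-1.11). Slc16a1, the lactate transporter MCT1, read 3514 and 790.2 (-2.15). Its second probe set lay below both array medians (1.3 and 35.5), and the mean over both gave 1.31, of opposite sign. Of 12 fatty acid synthesis genes 3 were lower, among them Fasn, fatty acid synthase (1867 and 614, -1.61), and 1 was higher, Acss2, which makes acetyl-CoA from acetate (270.2 and 742, 1.46). The median of these 12 genes was -0.59, and 10 of them had a negative difference of any size. None of 24 respiratory chain genes was called either way, and their median was -0.25. Of the 9 reference genes measured, Gapdh (21501 and 19521), Tbp (1039 and 928) and Gusb (1783 and 1676) had similar signals on both arrays. Rplp0 (23648 and 41808, 0.82) and Polr2a (1301 and 782, -0.73) differed more, in opposite directions, and were not called. Actb, encoding beta-actin, read 22112 and 44263, just past the threshold for a call.

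**Figure D3:**
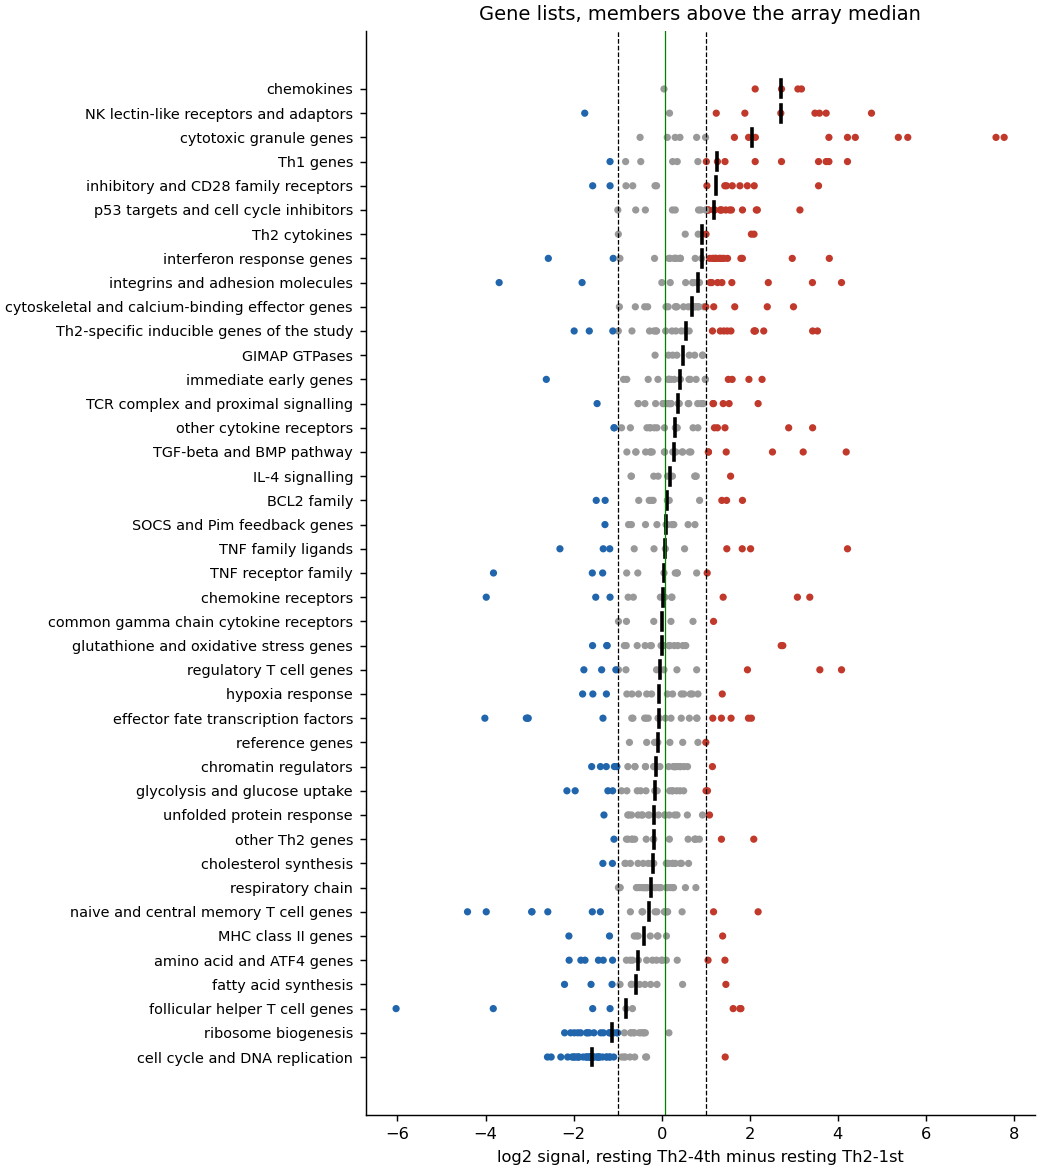
Each row is a gene list with at least 5 genes above the array median and each dot a gene, placed by its log2 difference between resting Th2-4th and resting Th2-1st cells (x axis), red when over 2-fold higher and blue when over 2-fold lower; black bars are list medians and the green line is the median of all 10847 genes (0.08). Cell cycle (-1.59) and ribosome biogenesis (-1.12) have the lowest medians, whereas the chemokine list at the top rests on 5 of its 19 genes.

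Gata3 and Il4 each differed by less than 2-fold between the 2 cultures at rest. Gata3 read 3312 in Th2-1st against 4846 in Th2-4th cells, a difference of 0.55. Il4 read 504 and 729 (0.53), and Il10, a cytokine that restrains inflammation, 390.3 and 693 (0.83). Of the Th2 cytokine list 6 genes passed, 3 were over 2-fold higher and none was over 2-fold lower. Il24 (247 and 125, -0.99) lay just short of the lower threshold. The higher genes were Il5, the growth factor of eosinophils (163 and 696, 2.10), Il6, a cytokine of inflammation (20.9 and 85.8, 2.04, floored 0.46), and Csf2, which encodes the growth factor GM-CSF (254 and 510.4), just past the threshold. Il13 did not reach the array median without stimulation (16.9 and 29.7), nor did Cxcl3, which encodes a chemokine (13.9 and 8.92). On the stimulated control siRNA arrays Il13 read 15757 and 35292 and Il4 34734 and 45979.6, so the resting signals are a small part of what these genes reach. Of the 32 Th2-specific inducible genes that the study had chosen on other Th1 and Th2 samples, 29 passed, 11 were over 2-fold higher and 3 lower, with a median of 0.54. Rnf128, a ubiquitin ligase linked to T cell anergy, read 571 in Th2-1st against 6628 in Th2-4th cells (3.54), Il1r2, the decoy receptor of IL-1, 292 and 3140.4 (3.43), and Penk, the precursor of enkephalins, 1290.4 and 6426 (2.32). The lower 3 were Dusp4, a phosphatase of MAP kinases (199 and 50.2), Mapk12, a p38 kinase (173 and 55.3), and Jdp2, a partner of AP-1 factors (581 and 269).

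Signalling by IL-4 is of interest because Th2-4th cells had been grown with anti-IL-4 mAb. Of 12 measured genes of the pathway 10 passed, and only Irs2, an adaptor of the IL-4 receptor, was called (75.5 and 223, 1.56). The receptor chain Il4ra read 1749 in Th2-1st against 1543 in Th2-4th cells and Stat6, the transcription factor it activates, 1064 and 1788, differences of -0.18 and 0.75. The IL-4 receptor and its main transducer were therefore within 2-fold in both cultures. Among receptors of related cytokines, Il7r, the IL-7 receptor, read 11646 and 26322 (1.18), and Il2ra, the high-affinity IL-2 receptor chain, 4722 and 2391 (-0.98). Crlf2, the receptor of TSLP, a cytokine of barrier tissues, read 4184 and 9589 (1.20). The IL-18 receptor chains Il18r1 (197 and 473) and Il18rap (594 and 1607) were higher by 1.26 and 1.44. Hpgds, the synthase of prostaglandin D2, read 71.7 and 305 (2.09), while Il17rb, the receptor of IL-25, was lower (111 and 52.2, -1.08, floored -0.58).

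Genes listed for Th1 cells gave a median of 1.26 over 15 passing genes, 9 of them higher and 1 lower. Since 2 of the 15 passed only through Th2-4th cells, these values are a description. Of the 13 above the median in both cultures 7 were higher and 1 lower, with a median of 1.01. The members that differed were mostly granule, chemokine and receptor genes that stand in other lists here too. The Th1 master gene Tbx21 read 1290.1 in Th2-1st against 927 in Th2-4th cells, a difference of -0.48, and Ifng, the Th1 cytokine, stayed below the median at rest (23.3 and 70.1). Stat4, which transduces IL-12, read 941 and 1118 (0.25). Ccl5, a chemokine of effector T cells, was higher (431 and 2838, 2.72), and Cxcr3, a chemokine receptor of Th1 cells, was the lower gene (6175 and 2737, -1.17). The defining regulators of the Th1 program thus did not differ by 2-fold at rest.

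Genes of the interferon response were higher as a group. Of 34 measured genes 29 passed, 14 were over 2-fold higher (background 11.9%) and 2 lower, with a median of 0.91 (0.76 floored, range 0.66 to 1.10 over the alternatives). Mx1, an antiviral GTPase, read 239 in Th2-1st against 3336 in Th2-4th cells (3.80), and Iigp1, a GTPase against intracellular parasites, 398 and 3103 (2.96). Ifih1, the RNA sensor MDA5, read 228 and 793 (1.80), and Irf9, a subunit of the interferon-activated factor ISGF3, 478 and 1121 (1.23). Against this direction were Usp18, which dampens interferon signalling (272 and 45.7, -2.58), and Ifit2 (762 and 355, -1.10). Oas2, Ifit1, Ifit3 and Mx2 did not reach the median in either culture. Letters of the interferon type (GAAANNGAAA, either strand, 250 bases before the start) were in 11 of the 28 windows of this list (39.3%), against 2.59% of the windows of all genes above the array median, 2.61% of all measured windows, 3.89% of the windows of genes over 2-fold higher and 1.94% of those over 2-fold lower. The granule list held them in 4 of 16 windows (25.0%). In the cell cycle, p53 target and ribosome biogenesis lists the shares were 2.22%, 3.70% and 0%. Irgm2, another GTPase of this family, read 931 and 2623 (1.49), and its window, on the plus strand, is printed with the single match, which begins 64 bases before the start, in capitals.
Irgm2, chr11:58214727-58214976: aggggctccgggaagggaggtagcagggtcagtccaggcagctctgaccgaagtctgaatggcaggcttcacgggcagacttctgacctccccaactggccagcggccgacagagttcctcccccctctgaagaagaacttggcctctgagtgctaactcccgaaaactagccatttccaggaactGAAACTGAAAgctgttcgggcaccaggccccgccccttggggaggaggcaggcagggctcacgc
Of the other motifs searched, GATA letters (AGATAA and AGATAG as well as TGATAA and TGATAG) were in 19.4% of the windows of higher genes, 15.4% of lower genes, 17.0% of all genes above the array median and 20.2% of all measured genes. In the same order, AP-1 letters (TGANTCA) were in 6.42%, 2.55%, 4.26% and 5.62%. Letters of the STAT6 type (TTCNNNNGAA) were in 6.03%, 5.95%, 4.62% and 4.99%, and those of the STAT5 type (TTCNNNGAA) in 7.30%, 6.80%, 5.83% and 6.21%. E-box letters (CACGTG), which Myc can bind, were in 8.46%, 7.78%, 8.30% and 7.38%. The 28 windows of the interferon response list were high for several of these too. They held GATA letters in 25.0%, AP-1 in 17.9%, STAT6 type in 17.9%, STAT5 type in 25.0% and E-box in 0%. A high STAT6 type share was not particular to them. The 26 windows of the ribosome biogenesis list held STAT6 type letters in 23.1% and STAT5 type in 11.5%, but GATA in 7.69% and AP-1 in 0%. Each motif was counted on both strands, and a window could hold several motifs.

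The list of inhibitory receptors, their ligands and CD28 family genes leaned higher at rest, but its inhibitory receptors did not all share that direction. Of its 14 passing genes 8 were over 2-fold higher and 2 lower, with a median of 1.23 (range 0.45 to 1.31). Among the 12 above the median in both cultures, 7 were higher and 1 lower. Havcr2, the receptor TIM-3, read 59.6 in Th2-1st against 703 in Th2-4th cells (3.56), and Pdcd1, the receptor PD-1, 162 and 555 (1.78). Both PD-1 ligands were higher too, Cd274 with 239 and 917 and Pdcd1lg2 with 155 and 665, differences of 1.94 and 2.10. After stimulation these genes were closer between the cultures: Havcr2 read 4844 and 9464, Pdcd1 2209.7 and 3692 and Cd274 2636 and 3988. Ctla4 (1179.6 and 1087) and the costimulatory receptor Cd28 (10475 and 9427) differed by -0.12 and -0.15. Lag3 was below the median in both cultures, and Btla, another inhibitory receptor, was lower (333 and 112, -1.57).

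Genes of naive and central memory T cells, which recirculate through lymph nodes, held several of the largest lower differences. Of 20 passing genes 7 were over 2-fold lower and 2 higher, and the median was -0.29. Ccr7, the receptor that guides T cells into lymph nodes, read 1242 in Th2-1st against 78.4 in Th2-4th cells (-3.98), and Klf2, a factor that keeps T cells quiescent and recirculating, 841 and 109 (-2.95). Igfbp4, which binds insulin-like growth factors, went from 11992 to 564 (-4.41), and all 6 of its probe sets were lower, by -3.79 to -5.20. Slamf6, a receptor of the SLAM family found on less differentiated T cells, stood in the follicular helper list and not in this one. It read 1126 and 79.5 (-3.83), with -1.20 and -1.37 on its other probe sets. Not all genes of the naive and central memory type took part. S1pr1, the receptor for leaving lymphoid organs, read 488 and 513, Foxo1 669.6 and 699, Lef1 3725 and 2759 and Satb1 13026 and 12082, none of them called.

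Adhesion molecules and chemokine receptors differed in both directions. Itgae, the CD103 chain that binds E-cadherin of epithelium, read 151 in Th2-1st against 2549 in Th2-4th cells (4.08, second probe set 3.40), and Itga1, a collagen-binding chain, 57 and 611 (3.42). Itga4, a chain used to enter inflamed tissue and gut, read 817 and 63.3 (-3.69), and Itga6, a laminin-binding chain, 1279 and 365 (-1.81). Over all 18 passing integrins and adhesion molecules 8 were higher and 2 lower, with a median of 0.83 (range 0.58 to 0.90). Cxcr6, a chemokine receptor of tissue effector T cells, read 2381 in Th2-1st against 24472 in Th2-4th cells, a difference of 3.36. Ccr1, a receptor of inflammatory chemokines, read 236 and 1999.8 (3.08), and Ccr2, a receptor of monocyte chemoattractants, 2758 and 7251 (1.39). The Th2 receptor genes Ccr8 (70.1 and 82.3) and Ccr4 (177 and 105) were not called. Of 19 chemokine genes 5 passed and 4 of these were higher, Ccl1, Ccl9, Ccl5 and Ccl4, all but Ccl5 with a Th2-1st signal below the array median. Ccl1 read 50.7 and 457 at rest and 38354 and 51302 after stimulation.

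Several transcription factors of T cell fate differed at rest. Batf3, an AP-1 family factor, read 1544 in Th2-1st against 95.4 in Th2-4th cells (-4.02), Ikzf3, the factor Aiolos, 1056 and 128 (-3.05), and Myb, a factor of proliferating and stem-like lymphocytes, 4182 and 512 (-3.03). For Ikzf3 the difference was seen at rest and not after stimulation, when it read 1139 and 1070.3. Foxo3, a factor of quiescence, was higher (1201 and 4923, 2.04), as were Zeb2, a factor of terminal effector cells (95.2 and 373, 1.97), and Bcl6, a repressor known from follicular helper cells (185 and 569, 1.62). Foxo3 too was close between cultures after stimulation (536 and 439). Other factors of the Th2 and effector programs, Maf (4572 and 8265), Irf4 (1632 and 1019) and Gfi1 (2904 and 1898), were within 2-fold.

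Immediate early genes are switched on by TCR signalling within minutes to hours. Of 21 passing genes 4 were higher and 1, Myc, was lower. Egr1 read 199 in Th2-1st against 603 in Th2-4th cells and Egr3 207 and 589.7, differences of 1.60 and 1.51. Both were far below their stimulated signals, which were 6287 and 22845 for Egr1 and 7574 and 25508 for Egr3. Jun, a subunit of AP-1, read 204 and 803 (1.98). Btg2, which restrains proliferation, read 1846 and 8954 at rest (2.28) and 1431 and 6352 after stimulation. The TCR complex and its near signalling partners had 25 passing genes, of which 5 were higher and 1 lower. Ptpn22, a phosphatase that dampens TCR signals, read 2793 and 8064 (1.53), and Trat1, an adaptor attached to the TCR complex, was lower with 5781 and 406 (-3.83).

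Structural and calcium-binding genes of effector cells leaned higher, with 5 of 24 called higher, none lower and a median of 0.69 (range 0.38 to 0.69). Lgals3, the sugar-binding protein galectin-3, read 3589.8 in Th2-1st against 28552 in Th2-4th cells (2.99), and S100a4, a calcium-binding protein linked to cell motility, 5189.7 and 27321 (2.40). Ligands and receptors of the TGF-beta and BMP family had 23 passing genes, of which 6 were higher and none lower. The BMP and activin receptor genes Acvr2a (304 and 2819, 3.21) and Bmpr2 (338 and 933, 1.46) and the ligand genes Bmp7 (172 and 981, 2.51) and Bmp2 (13.2 and 239.8, floored 1.94) were among them. Of 25 passing chromatin regulators 5 were lower and 1 higher, with a median of -0.12. The lower genes Uhrf1 (5016 and 1665), Dnmt1 (7723 and 3226) and Ezh2 (8664 and 3303) differed by -1.59, -1.26 and -1.39, and Ezh1, the Ezh2 paralogue known from nondividing cells, was the higher gene (761 and 1690.2, 1.15). Of 13 passing genes of the BCL2 family 3 were higher and 2 lower. Bcl2l11, the death promoter BIM, was higher (1238 and 3437, 1.47), the death promoters Bid (449 and 160.1, -1.49) and Bik (192 and 78.8, -1.28) were lower, and Bcl2, which opposes them, was not called (3553 and 3899).

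Some of the largest differences lay outside these lists. Slpi, an inhibitor of neutrophil proteases, read 125 in Th2-1st against 5148 in Th2-4th cells, a difference of 5.37. Csf1, the growth factor of macrophages, read 299 and 6789 (4.50), and its other 3 probe sets gave 3.15 to 4.13. These genes were high in every Th2-4th array, for instance 3516 and 5122 after stimulation. Slc17a6, a vesicular transporter of glutamate best known from neurons, read 10.2 and 1071 (floored 4.10, second probe set 6.96), and Upp1, which breaks down uridine, 14.1 and 1118 (floored 4.16). The aspartic proteases Bace2 (22.7 and 998) and Napsa (99.2 and 1629.8) and the membrane lipid scramblase Plscr4 (53.7 and 1184) had floored differences of 4.00, 4.04 and 4.24. Malat1, a nuclear long noncoding RNA, read 4189.5 and 34660.4 (3.05).

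On the lower side, Cd24a, a glycoprotein of immature and activated lymphocytes, read 973 in Th2-1st against 3.79 in Th2-4th cells, and its floored difference was -3.71. Its other 2 probe sets gave -3.94 and -3.99. Myo6, a motor protein that moves toward the minus end of actin filaments, read 5268 and 453 (-3.54). Tnfrsf25, the receptor of TL1A, read 398 and 28.1 (floored -2.42). Ighm, the immunoglobulin mu chain, has 11 probe sets here. The brightest 2 were lower (-3.08 and -3.07). Without those that can match several transcripts, the brightest left lay below both array medians (59.6 and 71.0) and gave 0.25. Ighm and Jchain, the antibody joining chain (390.4 and 36.9), are made by B cells and plasma cells. Cd79b, a chain of the B cell receptor, was lower as well (115 and 32.3, floored -0.64), and the MHC class II genes H2-Aa (86.5 and 20.1) and H2-Eb1 (122 and 53.6) were lower too, by -0.22 and -0.72 floored. Another probe set of H2-Aa had more signal at rest and read 241 and 38.4 (-2.65). For H2-Ab1 the chosen probe set gave -0.62 and was not called, while its others gave -1.50 and -1.25. Of 10 passing MHC class II genes 2 were over 2-fold lower and 1 higher. The other B cell genes Cd79a (2.6 and 14), Ms4a1 (50.8 and 29.9) and Pax5 (29.7 and 32.1) were below the array median in both cultures, and the part of other cells in these differences was not tested.

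The 2 stimulated pairs, which share no array with the resting pair, measured the same difference in cells given anti-TCR mAb. Over the same 10847 genes, 1121 (10.3%) were over 2-fold higher and 865 (7.97%) lower in Th2-4th cells after anti-TCR stimulation, and 971 (8.95%) were higher and 795 (7.33%) lower with Gata3 siRNA. These pairs are other conditions and may hold cells of the same 2 cultures, so they are not replicates. Of the 1292 genes higher at rest, 586 (45.4%) were also over 2-fold higher in the stimulated pair and 531 (41.1%) in the Gata3 siRNA pair. In the opposite direction were 30 (2.32%) and 43 (3.33%). Of the 1002 genes lower at rest, 447 (44.6%) and 445 (44.4%) were lower in those pairs, and 24 (2.40%) and 15 (1.5%) were higher. Past 2-fold the same way in all 3 pairs were 402 of the higher and 350 of the lower genes, 31.1% and 34.9%. Over all 10847 genes, 5.51% were higher and 4.52% were lower in both stimulated pairs.

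Among the 15 genes with the largest floored difference in each direction, all 15 higher genes were also over 2-fold higher in both stimulated pairs by their signals, and 14 by floored differences. The exception was Plscr4, which read 12.3 and 110.0 after stimulation, a floored difference of 0.83. Gzmd read 152 and 15001 in stimulated Th2-1st and Th2-4th cells and 70.9 and 13376 with Gata3 siRNA. Of the 15 lower genes 11 were over 2-fold lower in both pairs by their signals and 10 by floored differences. Igfbp4 differed by -4.70 and -4.24 in the stimulated and Gata3 siRNA pairs. Itga4 read 141 and 10.3 and, with Gata3 siRNA, 247 and 17.9, floored differences of -0.96 and -1.80. Klf2 read 50.2 and 139 after stimulation, a difference of 1.47, opposite to that at rest. Myo6 read 117 and 145 with Gata3 siRNA, where it no longer differed by 2-fold. Ikzf3 and Klf2 were below 2-fold in the Gata3 siRNA pair as well (-0.12 and -0.10).

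**Figure D4:**
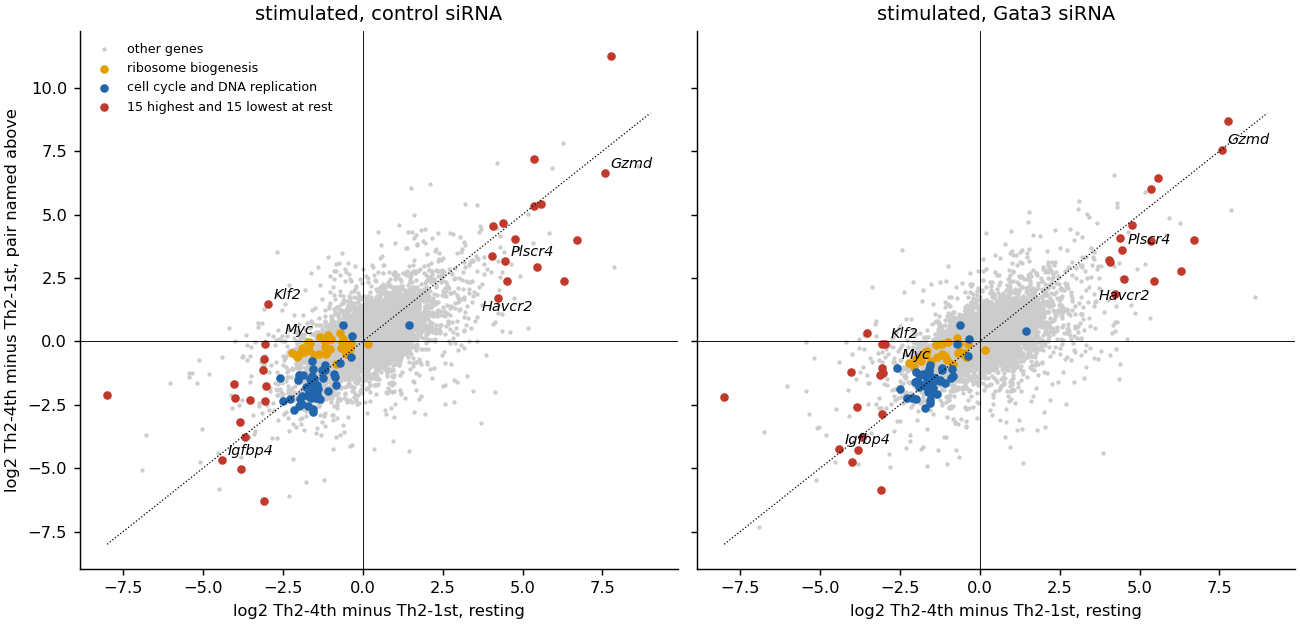
For each of the 10847 genes the Th2-4th minus Th2-1st log2 difference at rest (x axis) is plotted against the same difference after anti-TCR stimulation (y axis, left) and after stimulation with Gata3 siRNA (right); the dotted line marks equal values. Cell cycle genes (blue, medians -1.59 at rest and -1.76 stimulated) lie near the dotted line, whereas ribosome biogenesis genes (orange, -1.12 and -0.27) lie left of zero and close to the horizontal axis.

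Repeat probe sets give the only other reading of a gene on the 2 resting arrays. A second probe set above the array median was present for 5227 genes, and its difference departed from that of the brightest probe set by a median of 0.34 and by 1.36 at the 95th percentile. Of 469 such genes called higher by the brightest probe set, 270 (57.6%) were called higher by the second and 2 were called lower. Of 440 called lower, 265 (60.2%) were called lower by the second and 4 higher. The spread of differences was widest at low signals. Over 8 equal bins of geometric mean signal, the robust SD was 1.26 in the lowest (10.9 to 97.5), 0.80 in the next and 0.62 in the highest. This spread includes real differences and is no replicate error. Within 0.1 of the 2-fold threshold lay 447 genes on the higher side and 354 on the lower, so the counts of calls turn on many genes at the edge.

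**Figure D5:**
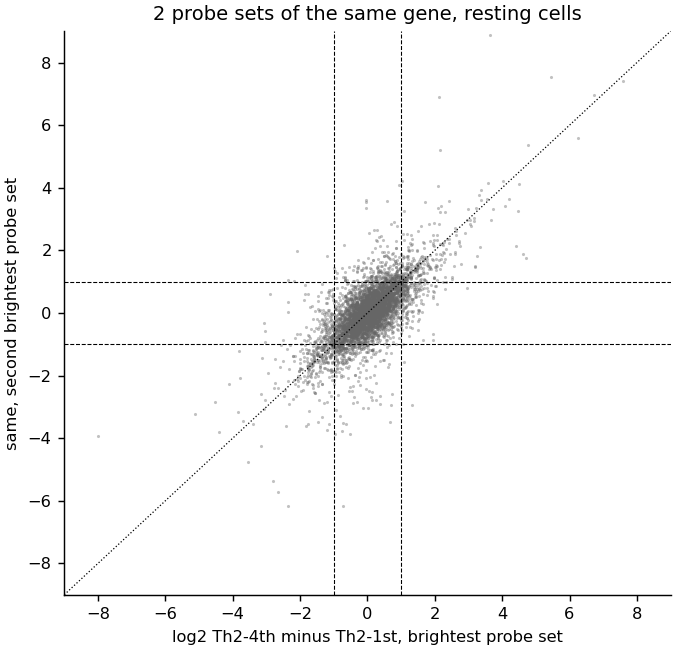
For 5227 genes measured by 2 probe sets that passed the array median, the Th2-4th minus Th2-1st log2 difference at rest of the brightest probe set (x axis) is plotted against that of the second brightest (y axis), with dashed lines at 2-fold and a dotted line of equal values. Most points lie near the dotted line, with a median departure of 0.34, and a tail lies far from it.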

How the data were processed

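RNA of 6 samples was measured on Affymetrix Mouse Genome 430 2.0 arrays, 1 per group. The authors deposited 1 linear intensity per probe set from the Expression Console software. Its version and its summarization method are not given in the sources consulted. Detection calls and scanner files were not used here, so a low signal cannot be told from background. The number of arrays limits the precision. The platform annotation paired 34958 of 45101 probe sets with 1 gene, and 34754 of those matched the RefSeq table (GRCm38.p6). Probe sets naming several genes (932) or none (9211) were left out, and 0 columns of per-sample values went unused. Log2 differences, 2-fold calls (the study's ratios of 0.5 and 2) and list medians were computed with Python 3.11.15, pandas 2.3.3, numpy 2.4.6 and scipy 1.17.1, and plots drawn with matplotlib 3.10.9. Counting was tested on simulated data.

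The comparison and the 50 gene lists (840 genes, 783 measured, 664 above the median) were chosen with earlier results of these data known. Named genes were the 15 largest floored differences each way, up to 5 each way per list, all genes of lists with 12 or fewer measured, and 6 genes whose levels the study followed over culture cycles. Genes named beyond this rule (such as Prf1, Gzmb, Mki67, Cdk1, Tbx21, Irf9, Tfrc and Malat1), the E2F and E-box motifs and the shared granzyme run were chosen after their values were seen. Counts of calls were recomputed under 8 alternatives of probe set, scaling, filter, floor and threshold, and list medians and named genes under all but the threshold, where a probe set remained.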

Additional observations from a re-analysis of the deposited data

How the results depend on the processing

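Counts of genes over 2-fold higher (1292) and over 2-fold lower (1002) stayed within 1.5 times under the mean over probe sets (1149 and 876), without probe sets that can match several transcripts (1186 and 874), with quantile normalization (1126 and 1147), with both signals above the median (867 and 735) and with signals raised to the array median (1005 and 815). With equal array medians 866 genes were higher and 1530 lower, with no filter 3554 and 2240, and at a threshold of 10 to the power 0.5 454 and 324. Of 270 named genes above the median, 7 that were past 2-fold as reported changed sign under an alternative. Changes of sign among named genes within 2-fold were not counted. With the mean over probe sets the log2 difference became 0.27 for Ikzf2, 1.31 for Slc16a1 and 0.43 for Fdps. Without probe sets that can match several transcripts it became 0.25 for Ighm, -1.02 for Tox2 and 0.19 for Zbtb32, and with signals raised to the median 0.25 for Cd226. For all of these but Cd226, a probe set below both array medians entered the value. The value of Cd226 reflects the unequal array medians and is no reversal of its signals. Leaving out an array was impossible with 1 array per group. No paired analysis was possible because each group holds 1 array and the labels carry no replicate numbers. Differences spread more widely at low signals, and no replicate error could be had.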
